A study of Mus musculus with 17 samples.

Results

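CD8+ T cells of C57BL/6 mice that carried a knockout (KO) of Cblb were compared with wild-type (WT) cells after 12 h with anti-CD3 and anti-CD28 antibodies together. Samples were chosen by genotype and stimulus alone, which gave 5 of the 17 libraries of the series: KO replicates 1, 2 and 3 and WT replicates 2 and 3. Replicate 1 of the WT group was not analysed here. The other 12 libraries were KO and WT cells, 3 of each, either unstimulated or given anti-CD3 alone for 12 h. They entered the model that estimated the spread. The sample titles give no culture time for the unstimulated cells. The extraction protocol states a CD8+ purity of more than 99%, and neither the age of the mice, the part of Cblb that was removed nor whether replicates came from separate animals is given, so p-values reflect the spread among these samples alone, which may be technical.

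The product of Cblb, Cbl-b, is an E3 ubiquitin ligase that attaches ubiquitin to signalling proteins downstream of the T cell receptor and of CD28. Anti-CD3 stands in for antigen by engaging the receptor complex, and anti-CD28 supplies the costimulatory signal that naive T cells normally receive from an antigen-presenting cell. T cells without Cbl-b are known to respond to the receptor signal with less need for CD28, so cells given both antibodies show the effect of the genotype where costimulation was supplied. The study's stated subject is the overproduction of interferon-gamma by such CD8+ cells.

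Levels below are CPM (read counts brought to the same library total, after edgeR's scaling of the totals). They are listed for KO replicates 1, 2 and 3 and then for WT replicates 2 and 3. Differences are KO minus WT as log2 fold change ± SE, with p from edgeR's quasi-likelihood test adjusted over all 16246 genes tested by the Benjamini-Hochberg method. A gene is called when that adjusted p is under 0.05. Total counts of the 5 libraries were 17816670 to 20989751, mitochondrially encoded genes took 2.85% to 3.68% of them, and a chi-square of 30.8 to 153 per gene set every replicate pair apart beyond sampling noise.

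Cblb itself (ENSMUSG00000022637; GRCm38 chromosome 16, 52031225 to 52208048, plus strand) read 80.2, 82.8 and 95.9 CPM in the KO libraries and 178 and 179 CPM in the WT libraries. All 3 KO libraries lay below both WT libraries, at about 0.484 of the WT level (log2 fold change -1.05 ± 0.090, adjusted p = 2.29e-05). The counts cover the whole gene, so the reads left in KO cells do not show how much intact transcript remained.

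The libraries differed in a trend with GC content that ran along the genotype. Each library was given a GC tilt, computed from protein-coding genes with a mean log2 CPM of 1 or more. It is the median log2 deviation of the 1516 genes with 56% GC or more, less the median of the 670 genes with 40% GC or less. It was 0.36, -0.34 and -1.15 in KO replicates 1, 2 and 3 and 0.57 and 0.52 in WT replicates 2 and 3, so that every KO library lay below both WT libraries. Among the other 12 libraries it ranged from -0.75 to 1.15. The median log2 fold change of KO against WT fell from 0.31 for genes of up to 40% GC to -0.53 for genes above 56% GC. With counts as deposited, 12.0% of the genes of lowest GC were called higher and 0.299% lower, against 0.775% higher and 17.1% lower among those of highest GC. Anti-CD3 alone gave the opposite slope (-0.15 to 0.38), as did unstimulated cells (-0.43 to 0.69). 7SK RNA and the RNA of the signal recognition particle, with their copies, took 9.45%, 5.88% and 2.65% of the counts in the KO libraries and 11.4% and 9.94% in the WT libraries, which is the same order as the tilt. Genotype and GC trend therefore cannot be told apart for a single gene of extreme GC content in these 5 libraries.

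**Figure D1:**
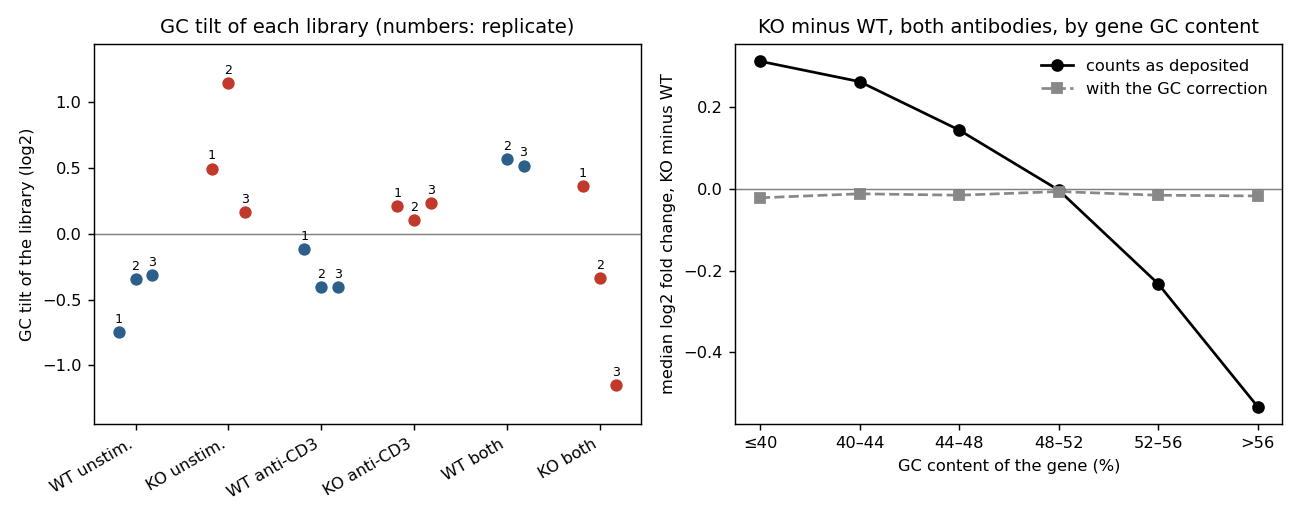
GC tilt of each of the 17 libraries (left, log2, red KO and blue WT, replicate number above each point) and median log2 fold change of KO against WT with both antibodies for genes grouped by GC content (right). The 3 KO libraries given both antibodies lie at 0.36, -0.34 and -1.15, below the WT libraries at 0.57 and 0.52. The fall of the median from 0.31 to -0.53 is gone after the correction, which takes out such a trend by design.

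A second fit therefore took out each library's own trend with GC content (a loess curve of log2 CPM on GC used as an offset), and results are given from both. With counts as deposited, 1598 of 16246 genes were higher in KO cells (9.84%) and 1023 lower (6.3%). With the GC correction, 1675 were higher (10.3%) and 1217 lower (7.49%). Both fits called 1168 genes higher and 642 lower, and 0 genes were called in opposite directions. The correction lost 430 higher and 381 lower calls and gained 507 and 575, across the GC range: between 44% and 48% GC, for one, lower calls went from 2.18% to 8.30% of genes and higher calls from 14.9% to 10.9%. At least 2-fold changes numbered 245 higher and 181 lower with counts as deposited and 245 higher and 82 lower after the correction. Every KO library lay above both WT libraries for 24.6% of all genes tested and below both for 24.4%. The median log2 fold change over all genes was 0.00024, or -0.028 after the correction.

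These calls rest on a spread shared by all 17 libraries and on a pair of WT libraries. A fit of the 5 libraries alone called 0 genes (smallest adjusted p = 0.197), although 3037 of 15093 genes had an unadjusted p under 0.05, DESeq2 on all libraries called 3589 and limma voom 9370. With the GC correction, the 5 libraries alone gave 203 higher and 52 lower calls. Leaving out WT replicate 2 or 3 left 40 and 11 calls, and leaving out KO replicate 1, 2 or 3 gave 5647, 1101 and 830. The list counts below carry the same limit. Each is to be read beside the shares over all genes tested. These were 9.84% higher and 6.3% lower, or 10.3% and 7.49% with the GC correction. KO replicate 1 was the KO library nearest to WT for 1093 of the 1168 genes higher in both fits (93.6%) and for 572 of the 642 lower ones (89.1%), and for 91.95% and 83.02% when levels were corrected for GC.

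Cytokine transcripts of effector T cells rose in KO cells. Of 14 T cell cytokine genes tested from a list of 21, 9 were higher and 1 was lower in KO cells, with the same counts after the GC correction (median log2 fold change 1.47, or 1.70 corrected). Ifng (ENSMUSG00000055170), which encodes interferon-gamma, the cytokine that activates macrophages and induces antigen presentation, read 233, 502 and 674 CPM in KO and 69.5 and 58.6 CPM in WT libraries. All 3 KO libraries stood well above both WT libraries, with a wide spread among the KO libraries. Its log2 fold change was 2.87 ± 0.37, about 7.33-fold (adjusted p = 0.00165, and 0.000957 with the GC correction, where the fold change was 2.59).

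Il2 (ENSMUSG00000027720), the T cell growth factor, read 6.38, 16.4 and 25.1 CPM in KO and 3.12 and 2.45 CPM in WT libraries. The groups did not overlap, with KO replicate 1 nearest to WT (2.52 ± 0.52, adjusted p = 0.00842; corrected 2.14, adjusted p = 0.00584). Lif (ENSMUSG00000034394), leukaemia inhibitory factor, had the highest fold change among called protein-coding genes with a mean log2 CPM of 2 or more and groups that did not overlap, with 10.2, 13.5 and 23.7 CPM in KO and 1.40 and 1.66 CPM in WT libraries (3.36 ± 0.47, adjusted p = 0.00195). Its GC content of 53.0% lies above the middle of the range, and the correction raised its value, to 3.57. Csf2, which encodes GM-CSF, read 3.27, 5.55 and 7.27 CPM in KO and 1.09 and 0.441 CPM in WT libraries (2.81 ± 0.49, adjusted p = 0.00357). Tnf, tumour necrosis factor, was expressed more evenly, at 80.00, 107 and 110.1 CPM in KO and 44.8 and 44.7 CPM in WT libraries, and was higher by 1.14 ± 0.20 (adjusted p = 0.00363).

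Lta, lymphotoxin alpha, showed the same separation at 33.6, 52.01 and 66.6 CPM against 15.2 and 14.1 CPM (1.79 ± 0.27, adjusted p = 0.00232). Low transcripts also moved: Il3, a growth factor of blood cell precursors, read 3.72, 8.79 and 9.02 CPM in KO and 0.831 and 0.0979 CPM in WT libraries (3.96 ± 0.71, adjusted p = 0.0069). At such counts the size of the fold change is uncertain. Il16, a T cell chemoattractant, was the 1 lower member, at 351, 315 and 239 CPM in KO and 434 and 418 CPM in WT libraries (-0.50 ± 0.12, adjusted p = 0.016; corrected -0.34).

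The stretches of DNA just before the starts of 4 effector genes are shown because these had the highest fold changes among called protein-coding genes with a mean log2 CPM of 2 or more and no overlap of the groups, on GRCm38.p6 with sequence from RefSeq. Each is the 250 bases before the RefSeq start, 5′ to 3′ on the gene's own strand, and capitals mark matches on either strand to 3 short motifs: GGAAA (the core read by NFAT, the factor that calcium signalling activates), TGANTCA (read by AP-1) and TTCNNNGAA (read by STAT proteins).
Ifng, chr10:118440796-118441045, plus strand: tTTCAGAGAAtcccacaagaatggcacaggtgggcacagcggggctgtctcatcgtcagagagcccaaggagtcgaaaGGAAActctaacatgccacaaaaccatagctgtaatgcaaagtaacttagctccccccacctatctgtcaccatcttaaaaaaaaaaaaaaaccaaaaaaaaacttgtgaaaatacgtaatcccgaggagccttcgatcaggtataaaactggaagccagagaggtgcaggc
Il2, chr3:37125955-37126204, minus strand: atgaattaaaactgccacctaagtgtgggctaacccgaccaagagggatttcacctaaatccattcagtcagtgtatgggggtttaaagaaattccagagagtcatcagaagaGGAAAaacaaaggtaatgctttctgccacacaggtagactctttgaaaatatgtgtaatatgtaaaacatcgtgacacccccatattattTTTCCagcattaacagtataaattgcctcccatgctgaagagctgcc
Gzmb, chr14:56262335-56262584, minus strand: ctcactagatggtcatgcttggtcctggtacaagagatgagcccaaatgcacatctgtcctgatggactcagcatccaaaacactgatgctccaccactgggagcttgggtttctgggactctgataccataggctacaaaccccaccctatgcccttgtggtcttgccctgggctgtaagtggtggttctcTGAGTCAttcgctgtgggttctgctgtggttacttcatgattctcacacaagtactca
Lif, chr11:4257318-4257567, plus strand: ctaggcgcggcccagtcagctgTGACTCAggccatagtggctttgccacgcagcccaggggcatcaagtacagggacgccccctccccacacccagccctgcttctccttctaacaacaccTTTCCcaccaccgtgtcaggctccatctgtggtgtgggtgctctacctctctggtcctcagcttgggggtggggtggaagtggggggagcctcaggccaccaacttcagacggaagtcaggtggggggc
The Ifng window held 1 GGAAA and 1 TTCNNNGAA, that of Il2 2 GGAAA, that of Gzmb 1 TGANTCA, and that of Lif 1 GGAAA and 1 TGANTCA. No marked matches overlap one another. Over the 27025 promoters of the RefSeq table, 55.6% of windows of the same length held GGAAA, 6.87% TGANTCA and 7.18% TTCNNNGAA, so GGAAA is common by its shortness. Among the 12 tested cytokine genes with a window in the table, 11 held GGAAA, 3 held TGANTCA and 3 held TTCNNNGAA. A match is a string of letters in this window and was not tied to binding here.

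**Figure D2:**
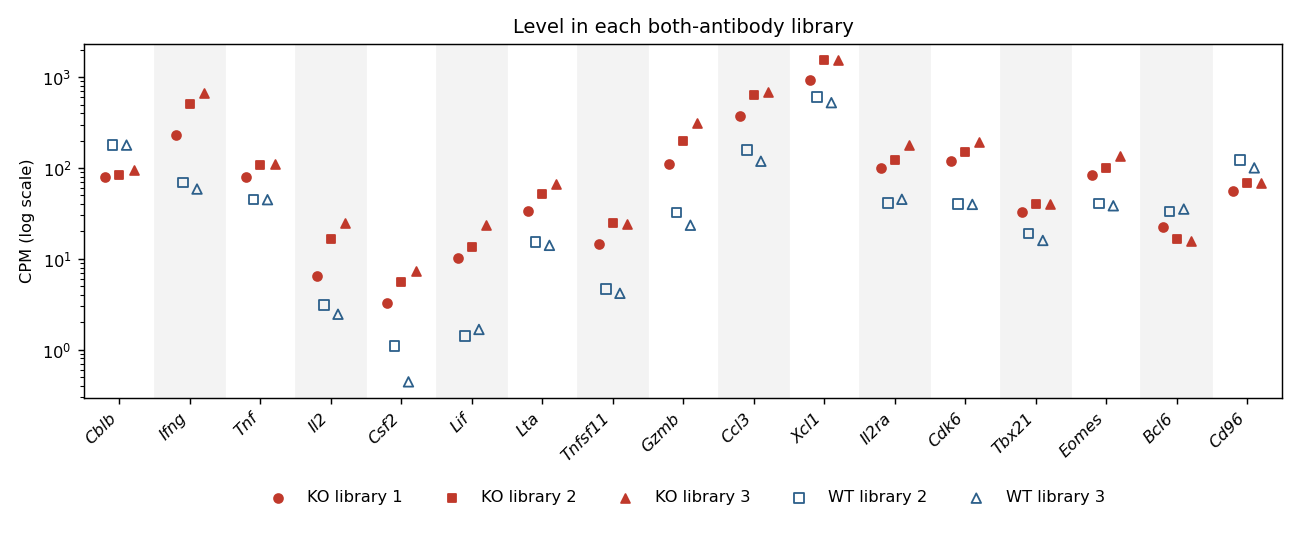
CPM on a log scale of 17 genes in each of the 5 libraries given both antibodies (filled red symbols KO, open blue symbols WT, symbol shape the replicate). Ifng reads 233, 502 and 674 CPM in KO against 69.5 and 58.6 CPM in WT libraries, and KO replicate 1 is the KO library nearest to WT for most of the higher genes.

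Chemokine genes were higher as well, 5 of 8 tested and 0 lower in both fits (median 1.18, corrected 1.07). Ccl3, which encodes MIP-1 alpha, an attractant of macrophages and T cells, read 376, 632 and 696 CPM in KO and 157 and 119 CPM in WT libraries (2.04 ± 0.26, adjusted p = 0.00128). Ccl4, its neighbour gene and close relative, read 308, 458 and 408 CPM against 194 and 166 CPM (1.12 ± 0.16). Xcl1, the ligand of XCR1 on cross-presenting dendritic cells, was the most abundant of the list at 920.3, 1544 and 1533 CPM against 604 and 524 CPM (1.24 ± 0.17, adjusted p = 0.00162). Ccl9 and Ccl1 rose by 2.02 ± 0.39 and 1.36 ± 0.23. Of 8 TNF superfamily ligands tested, 3 were higher and 0 lower in both fits. Tnfsf11 (RANKL), which drives osteoclast and lymph node development, read 14.6, 24.9 and 24.1 CPM in KO and 4.67 and 4.16 CPM in WT libraries (2.26 ± 0.32, adjusted p = 0.00165). Tnfsf8 (CD30 ligand) and Tnfsf14 (LIGHT) rose less, by 0.93 ± 0.19 and 0.51 ± 0.16.

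Cytotoxic genes moved unevenly: of 22 tested, 5 were higher and 1 lower, or 6 and 2 with the GC correction, and the list median was 0.24 (corrected 0.12). Gzmb, granzyme B, the protease that triggers death of target cells, read 110.4, 197 and 311 CPM in KO and 32.3 and 23.4 CPM in WT libraries. The KO libraries were spread widely and all lay above WT (2.89 ± 0.48, about 7.4-fold, adjusted p = 0.00425; corrected 2.71, adjusted p = 0.00258). Serpinb9, the inhibitor that protects killer cells from their own granzyme B, read 112, 192 and 240.2 CPM against 82.97 and 70.6 CPM (1.24 ± 0.24, adjusted p = 0.0063). Prf1, which encodes perforin, read 80.6, 89.1 and 78.6 CPM in KO and 72.2 and 60.3 CPM in WT libraries, 0.32 ± 0.13 with adjusted p = 0.0945, and passed with the correction at 0.53 (adjusted p = 0.00442). Crtam, an adhesion receptor of activated CD8 cells, rose by 0.80 ± 0.15, and Nkg7, a granule membrane protein, by 0.61 ± 0.15.

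Genes that the receptor induces early gave 6 higher and 1 lower of 24 in each fit, 5 and 1 of them shared, and their median shifted from 0.045 to 0.46 with the GC correction. Nr4a3, an orphan nuclear receptor whose level follows receptor signalling, read 114, 153 and 196 CPM in KO and 68.5 and 67.8 CPM in WT libraries (1.18 ± 0.17, adjusted p = 0.00177; corrected 1.10). Irf4, which scales effector expansion to receptor strength, read 287, 362 and 411 CPM against 192 and 219.8 CPM (0.78 ± 0.15, adjusted p = 0.00517). Nr4a2 and Tnfrsf9 (4-1BB) rose by 0.71 ± 0.13 and 0.67 ± 0.13. Myc, the growth regulator, read 130.2, 119.8 and 131 CPM against 82.9 and 96.2 CPM, with little spread in KO (0.51 ± 0.14, adjusted p = 0.0241; corrected 0.70). Cd69, an early surface marker of 35.9% GC, read 237, 374 and 531 CPM in KO and 196 and 220.0 CPM in WT libraries, and its call (0.87 ± 0.23, adjusted p = 0.0212) was lost with the correction (0.48, adjusted p = 0.0637). Nfatc1, of the NFAT family, was the 1 lower member (-0.48 ± 0.14, adjusted p = 0.0264; corrected -0.29).

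Components of the receptor and its proximal kinases leaned the other way. Of 32 tested, 1 was higher and 8 lower, and 0 higher and 11 lower with the GC correction, with 7 lower in both fits (medians -0.098 and -0.12). Cd247, the zeta chain that carries the signal into the cell, read 223, 208 and 173 CPM in KO and 256 and 268 CPM in WT libraries (-0.38 ± 0.10, adjusted p = 0.0194; corrected -0.58). Plcg1, the phospholipase that starts calcium signalling and a known partner of Cbl-b, read 220.0, 192 and 145 CPM against 272 and 267 CPM (-0.53 ± 0.13, adjusted p = 0.0168; corrected -0.31). Lck, the first kinase of the pathway, and Grap2 (GADS), an adaptor, fell by 0.47 ± 0.14 and 0.30 ± 0.090. These differences were small, and without KO replicate 3 the list held 1 lower call. Zap70 (59.6% GC) was called as deposited, and its difference of -0.66 ± 0.20 became -0.029 (adjusted p = 0.837) with the correction, and Malt1 (35.8% GC) went from 0.44 ± 0.13 to 0.087 (adjusted p = 0.562).

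Brakes on receptor signalling, such as phosphatases, Sprouty and Dok proteins, were mixed, with 4 higher and 5 lower of 38 in each fit, 2 and 3 of them shared, and 0 and 1 without KO replicate 3. The higher count is near the share over all genes tested (9.84%, or 10.3% with the GC correction). Dusp5, a phosphatase that inactivates ERK in the nucleus, read 21.4, 22.1 and 28.2 CPM in KO and 13.1 and 14.98 CPM in WT libraries (0.77 ± 0.22, adjusted p = 0.0287; corrected 1.27). Dusp10, which acts on the stress kinases JNK and p38, read 27.7, 25.1 and 22.9 CPM against 34.8 and 40.8 CPM (-0.58 ± 0.13, adjusted p = 0.00851; corrected -0.66). Ptpn2 and Spred1, called higher with counts as deposited, and Dok2 and Sit1, called lower, lost their calls with the correction (adjusted p = 0.0809, 0.094, 0.274 and 0.706).

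IL-2 signals through STAT5 to drive survival and division and to raise the alpha chain of its own receptor. Of 25 such genes tested, 12 were higher and 3 lower, or 15 and 2 with the GC correction, with a median of 0.32 (corrected 0.70), and without KO replicate 3 the count was 9 and 2. Il2ra, that alpha chain, read 98.9, 122 and 180.5 CPM in KO and 41.3 and 45.2 CPM in WT libraries (1.63 ± 0.24, adjusted p = 0.00222; corrected 1.39). Cdk6, a kinase of the G1 phase, read 120.5, 152 and 196 CPM against 40.3 and 39.7 CPM, with the smallest adjusted p of the list (1.96 ± 0.19, 6.05e-05). It also kept its call when either WT library was left out.

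Cish, a feedback inhibitor that STAT5 induces, read 25.9, 26.9 and 31.5 CPM in KO and 7.89 and 9.64 CPM in WT libraries (1.68 ± 0.28, adjusted p = 0.00314; corrected 1.86). Socs2, another such inhibitor, was low at 1.55, 2.20 and 3.63 CPM against 0.0519 and 0.441 CPM (3.27 ± 0.71, adjusted p = 0.00875). Ccnd2 (cyclin D2) and Bcl2, the survival protein, rose by 0.91 ± 0.11 and 1.16 ± 0.15. Bcl6, the repressor that STAT5 opposes, fell from 33.3 and 35.2 CPM in WT to 22.2, 16.7 and 15.7 CPM in KO libraries (-0.91 ± 0.17, adjusted p = 0.00425; corrected -0.89). Socs1 and Ccnd3 were called lower as deposited (-0.72 ± 0.15 and -0.54 ± 0.16) but not after the correction (-0.12 and -0.13).

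Among 25 cytokine receptor genes, 4 were higher and 3 lower in both fits, with 7 and 6 called by the corrected fit in all, and 2 higher and 1 lower without KO replicate 3. Il12rb2, which lets T cells respond to IL-12, read 30.4, 30.2 and 29.7 CPM in KO and 15.2 and 14.7 CPM in WT libraries, with almost no spread inside either group (1.01 ± 0.21, adjusted p = 0.00646). Il15ra and Il18rap rose by 0.71 ± 0.18 and 0.62 ± 0.16. Tgfbr2, the receptor for TGF-beta, which restrains T cells, read 266, 234 and 201 CPM against 313 and 329.6 CPM (-0.46 ± 0.11, adjusted p = 0.0133; corrected -0.48). Il6ra and Il6st, the 2 chains of the IL-6 receptor, fell by 0.43 ± 0.12 and 0.27 ± 0.087. Il7r, the receptor of the IL-7 that keeps resting T cells alive, read 718, 805 and 829 CPM in KO and 918 and 854 CPM in WT libraries; it missed the threshold as deposited (-0.18 ± 0.11, adjusted p = 0.294) and passed with the correction (-0.47, adjusted p = 0.00198).

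Effector transcription factors gave 6 higher and 1 lower of 22, or 5 and 2 with the GC correction, with 5 higher in both fits. Eomes, which directs effector and memory CD8 programs, read 82.9, 98.95 and 134 CPM in KO and 40.4 and 38.3 CPM in WT libraries (1.42 ± 0.18, adjusted p = 0.000973; corrected 1.69). Tbx21 (T-bet), a direct activator of Ifng with 59.3% GC, read 33.1, 40.03 and 40.1 CPM against 18.95 and 15.9 CPM. Its rise of 1.11 ± 0.18 (adjusted p = 0.00259) ran against the GC trend and was 1.85 after the correction. Irf8 rose from 45.3 and 38.9 CPM to 87.7, 101 and 96.2 CPM (1.17 ± 0.18, adjusted p = 0.00215). Runx3, called lower as deposited (-0.54 ± 0.17), was not called with the correction (-0.19, adjusted p = 0.26).

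Genes of naive and quiescent T cells were lower: 14 of 30 fell and 1 rose, and 21 fell and 1 rose with the GC correction, 13 of them lower in both fits (medians -0.30 and -0.37). The count of lower members was 8 without KO replicate 3. S1pr1, the receptor that lets T cells leave lymph nodes, read 493, 484 and 448 CPM in KO and 654 and 667 CPM in WT libraries (-0.48 ± 0.089, adjusted p = 0.00435; corrected -0.53). Pik3ip1, an inhibitor of PI3 kinase that is lost on activation, read 171, 146 and 119 CPM against 233 and 212 CPM (-0.62 ± 0.12, adjusted p = 0.0050). Lef1 and Bach2, transcription factors of the naive state, fell by 0.47 ± 0.10 and 0.32 ± 0.11. Tcf7, which encodes TCF-1, read 522, 417 and 392.2 CPM in KO and 561 and 563 CPM in WT libraries and missed the threshold in both fits (-0.34 ± 0.12, adjusted p = 0.056; corrected -0.23, adjusted p = 0.0809). Klf2, the factor that maintains S1pr1, was called lower as deposited (-0.86 ± 0.14, adjusted p = 0.00259), but at 61.6% GC its difference was -0.016 after the correction. Igfbp4 was the 1 higher member, at 19.97, 20.6 and 21.5 CPM against 7.68 and 6.95 CPM (1.50 ± 0.18, adjusted p = 0.000767).

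Homing receptors gave 2 higher and 4 lower of 23, all 6 called in both fits, and 3 higher and 9 lower with the correction. Without KO replicate 3 there were 2 higher and 1 lower. Cd44, the hyaluronan receptor that marks activated cells, read 62.1, 81.4 and 103 CPM in KO and 46.4 and 38.5 CPM in WT libraries (0.95 ± 0.17, adjusted p = 0.00374). Itgae (CD103), an integrin chain that TGF-beta induces, read 38.3, 35.9 and 27.7 CPM against 56.3 and 53.8 CPM (-0.69 ± 0.17, adjusted p = 0.016; corrected -0.63). Itgb7, its partner chain, fell by 0.83 ± 0.23 and Itgb1 rose by 0.58 ± 0.14. In the TGF-beta pathway list 1 of 23 genes was higher and 6 were lower, 4 of them lower in both fits, and 0 and 3 were called without KO replicate 3. Smad7, its inhibitor, went from -0.66 ± 0.12 (adjusted p = 0.00364) to -0.19 (adjusted p = 0.181) with the correction.

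Inhibitory receptors did not move together: 7 of 19 were higher and 3 lower, with 5 and 3 in both fits, and 4 and 1 without KO replicate 3. Cd200, whose receptor damps myeloid cells, read 12.98, 21.98 and 26.5 CPM in KO and 3.84 and 6.17 CPM in WT libraries (2.03 ± 0.31, adjusted p = 0.00226). Btla, a receptor of the CD28 family, read 62.6, 79.1 and 97.9 CPM against 46.6 and 41.6 CPM (0.86 ± 0.17, adjusted p = 0.00607; corrected 0.54). Cd96, which competes with DNAM-1 for ligand, was lower, at 56.4, 68.03 and 68.97 CPM in KO and 122 and 100.3 CPM in WT libraries (-0.78 ± 0.13, adjusted p = 0.00314; corrected -0.97). Lilrb4a rose by 1.80 ± 0.37 and Vsir (VISTA) fell by 0.54 ± 0.15. Pdcd1 (PD-1) read 20.9, 25.1 and 25.1 CPM in KO and 24.97 and 24.8 CPM in WT libraries, a difference of -0.070 ± 0.17 (adjusted p = 0.803). Lag3 was low in all 5 libraries, at 3.72, 3.72 and 2.58 CPM against 4.52 and 3.04 CPM (-0.17 ± 0.25, adjusted p = 0.673). Both lie at high GC, and the correction moved them to 0.23 and 0.51, still short of the threshold. Of 19 costimulatory receptors, 3 were higher and 2 lower (2 and 0 without KO replicate 3), and Cd28 itself read 190.0, 203 and 239.7 CPM against 197 and 207 CPM (0.061 ± 0.13, adjusted p = 0.779; corrected -0.23, adjusted p = 0.0473).

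Genes of growth and biosynthesis were counted by list. Of 34 ribosome biogenesis factors, which make ribosomal RNA and assemble ribosomes in the nucleolus, 24 were higher and 0 lower, and all 34 were called higher with the GC correction (medians 0.57 and 0.63). Utp20, a processing factor of the small subunit, read 184, 226 and 267 CPM in KO and 128 and 125 CPM in WT libraries (0.84 ± 0.12, adjusted p = 0.00206). Gnl3 (nucleostemin) read 159.8, 232 and 305 CPM against 113 and 112 CPM (1.05 ± 0.19, adjusted p = 0.00425). Heatr1 and Tsr1 rose by 0.78 ± 0.12 and 0.96 ± 0.17. The 40 cytosolic ribosomal protein genes gave 3 higher and 1 lower (median 0.012), 10 and 1 with the correction, and 0 and 0 without KO replicate 3. Many of them have near-identical pseudogenes that can share their reads.

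Amino acid supply genes and targets of ATF4, the factor that answers amino acid shortage, gave 10 higher and 0 lower of 27, and 18 and 0 with the correction (medians 0.35 and 0.71). Psat1, of serine synthesis, read 65.5, 83.04 and 100.2 CPM in KO and 35.9 and 33.04 CPM in WT libraries (1.27 ± 0.17, adjusted p = 0.00126). Asns, asparagine synthetase, read 10.2, 16.1 and 22.2 CPM against 5.45 and 4.21 CPM (1.74 ± 0.28, adjusted p = 0.00243). Mthfd2 and Mthfd1, of one-carbon metabolism, rose by 1.01 ± 0.15 and 0.79 ± 0.13. Glycolysis genes gave 8 higher and 2 lower of 23, but their median was -0.11 as deposited and 0.26 corrected, when 12 were higher and 1 lower. Hk2, the hexokinase that activation induces, read 31.5, 40.8 and 42.5 CPM in KO and 18.3 and 20.6 CPM in WT libraries (0.97 ± 0.17, adjusted p = 0.00367), and Pgk1 and Pgam1 rose by 0.90 ± 0.15 and 0.83 ± 0.14. Hk1, called lower as deposited (-0.51 ± 0.14), lost its call (-0.10, adjusted p = 0.327), while Pdk1, which holds pyruvate back from the mitochondrion, was lower in both fits (-0.27 ± 0.082 and -0.42).

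Chaperones, which fold new proteins, gave 20 higher and 0 lower of 25, with 17 higher in both fits (medians 0.69 and 0.53). Hsp90aa1, the inducible HSP90, read 852, 1288 and 1813 CPM in KO and 561 and 556 CPM in WT libraries (1.24 ± 0.21, adjusted p = 0.00357; corrected 0.97). Hspe1 and Hspa9, of the mitochondrial matrix, rose by 1.04 ± 0.17 and 0.99 ± 0.17, and Cct3, of the ring that folds actin and tubulin, by 0.79 ± 0.13. Of 30 nuclear-encoded respiratory chain subunits 12 were higher and 0 lower, 8 in both fits, and 5 were higher without KO replicate 3. Cycs, cytochrome c, read 129, 181 and 234 CPM against 86.8 and 92.04 CPM (1.02 ± 0.19, adjusted p = 0.00425; corrected 0.70). Sterol and fatty acid synthesis gave 8 higher and 1 lower of 30, 7 and 0 in both fits, and 5 higher and 0 lower without KO replicate 3. Acaca, the first enzyme of fatty acid synthesis, read 116, 131 and 152 CPM against 85.9 and 84.9 CPM (0.64 ± 0.11, adjusted p = 0.00364), and Idi1 rose by 1.28 ± 0.25.

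DNA replication genes were higher, 19 of 31 with 1 lower as deposited and 22 with 0 lower after the correction, 18 of them in both fits (medians 0.62 and 0.50), and 12 without KO replicate 3. Mcm10, which helps load the replication fork, read 5.71, 4.92 and 8.50 CPM in KO and 1.61 and 0.979 CPM in WT libraries (2.30 ± 0.38, adjusted p = 0.00314). Uhrf1, which couples replication to DNA methylation, read 24.8, 20.1 and 25.5 CPM against 10.1 and 9.60 CPM (1.25 ± 0.22, adjusted p = 0.00367). Rrm1, a subunit of ribonucleotide reductase, rose by 0.79 ± 0.15. Of 18 G1 cyclins, CDKs and inhibitors, 4 were higher and 2 lower as deposited and 5 and 3 with the correction. Mitosis genes were low in these cells: 8 of 26 were higher and 0 lower, 6 and 1 with the correction, and 1 and 0 without KO replicate 3, while the median was 0.88 and 0.72 in those 2 fits of all libraries. Top2a read 41.2, 52.2 and 78.6 CPM in KO and 21.2 and 17.3 CPM in WT libraries (1.58 ± 0.30, adjusted p = 0.00638). Ccna2 (cyclin A2) read 5.16, 5.76 and 13.01 CPM against 3.48 and 2.74 CPM, with KO replicate 3 far above the other KO libraries (1.35 ± 0.36, adjusted p = 0.0205).

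**Figure D3:**
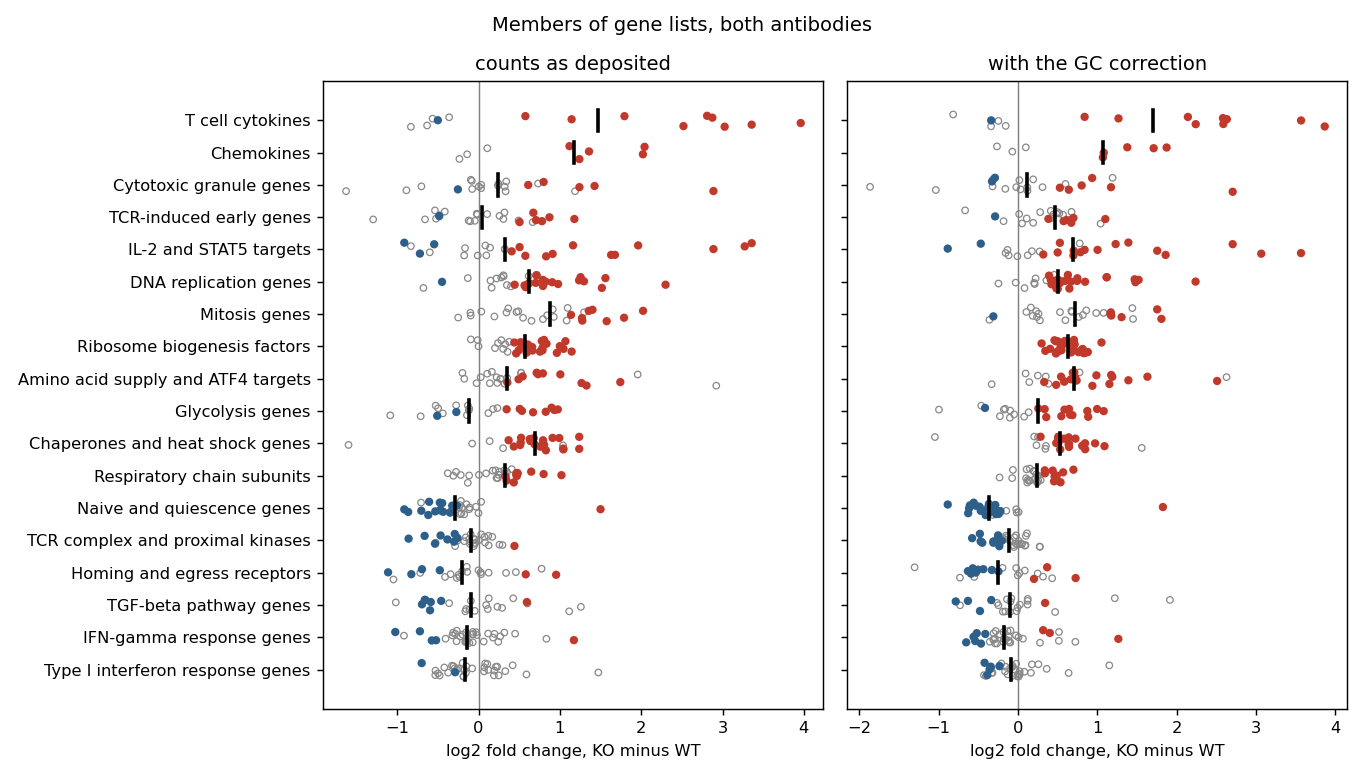
Log2 fold change of KO against WT with both antibodies for the tested members of 18 gene lists, with counts as deposited (left) and with the GC correction (right). Each point is a gene (red called higher, blue called lower, open grey not called) and each black bar is the list's median, which is 1.47 for T cell cytokines, 0.57 for ribosome biogenesis factors and -0.30 for naive and quiescence genes on the left.

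Genes of the Bcl-2 family, which holds members for survival and for death, gave 4 higher and 1 lower of 15 in both fits. The counts were 6 and 1 with the GC correction, and 2 higher without KO replicate 3. Bcl2 read 246, 292 and 349.7 CPM in KO and 143 and 121 CPM in WT libraries, and Bcl2l1 (Bcl-xL) 27.9, 30.04 and 27.8 CPM against 16.5 and 15.6 CPM (0.83 ± 0.16, adjusted p = 0.00472; corrected 1.23). Bcl2a1b and Bcl2a1d are near-identical copies whose reads counting may divide. Bbc3 (PUMA), which promotes cell death, had the lowest fold change among well-expressed called genes whose groups did not overlap, at 6.93, 3.14 and 1.58 CPM in KO against 11.4 and 12.4 CPM in WT libraries. With 65.2% GC, its difference of -1.61 ± 0.46 (adjusted p = 0.0289) was -0.76 (adjusted p = 0.0186) after the correction. Of 23 genes of NF-kappaB, 4 were higher and 1 lower in both fits, and 7 and 2 with the GC correction. Map3k8, a kinase of the pathway, rose by 0.87 ± 0.16 and Rel by 0.59 ± 0.15, while Ikbke fell by 0.65 ± 0.15.

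Of 35 genes that interferon-gamma induces, 1 was higher and 4 were lower, and 3 and 6 with the GC correction, 1 and 1 of them in both fits, with medians of -0.14 and -0.18, and 1 and 1 were called without KO replicate 3. Irf8 was the higher member. Tap2, a peptide transporter for MHC class I, read 177, 102 and 57.1 CPM in KO and 223 and 232 CPM in WT libraries (-1.02 ± 0.31, adjusted p = 0.0396; corrected -0.65). Tap1, Tapbp and Socs1, at 56% GC or more, lost their calls with the correction (adjusted p = 0.0783, 0.228 and 0.688). Of 34 type I interferon response genes 0 were higher and 2 lower as deposited, or 0 and 5 with the GC correction. The 2 genes lower in both fits were Irf7 (-0.70 ± 0.17) and Ddx58 (-0.29 ± 0.090). Without KO replicate 3, 1 gene of the list was called lower.

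The genes at the 2 ends of the comparison differed in kind. With the same limits on level and overlap, the 12 highest were Lif, Gzmb, Ifng, Il2, Tnfsf11, Cd24a, Serpina3f, Fignl1, Lad1, Ccl3, Cd200 and Ccl9, and all 12 were called in both fits. The 12 lowest held 4 histone genes and were mostly rich in GC, and 2 of them, Col11a2 and Hist4h4, were not called with the correction (adjusted p = 0.0709 and 0.0559). Hist1h1c, a linker histone, read 174, 97.7 and 36.7 CPM in KO and 291 and 286 CPM in WT libraries, with KO replicate 1 nearer to WT than KO replicate 3 was (-1.49 ± 0.46, adjusted p = 0.0477; corrected -1.28). Ramp1, which forms a neuropeptide receptor, separated more evenly at 4.22, 3.66 and 4.40 CPM against 9.50 and 10.1 CPM (-1.26 ± 0.28, adjusted p = 0.00957; corrected -1.13). Dtx1, an E3 ligase of the Notch pathway, fell from 19.5 and 19.9 CPM to 13.6, 7.33 and 3.63 CPM (-1.26 ± 0.35, corrected -0.52). For Hist1h1c and Dtx1 the order of the KO libraries is that of the GC tilt and of the small RNA share. For Lif, Gzmb, Ifng and Il2, among the highest, the KO libraries rose in the reverse of that order. The part of the tilt or of the small RNA share in these results was not tested.

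Genes called only with the correction were ranked within the same limits on level, gene type and overlap. The 5 higher ones with the lowest adjusted p had 55.2% to 61.2% GC. Srm, spermidine synthase, at 59.8% GC read 59.9, 57.6 and 42.5 CPM in KO and 37.3 and 41.4 CPM in WT libraries (0.44 ± 0.18, adjusted p = 0.105; corrected 1.13, adjusted p = 0.000359). Noc2l, Tuba1b, Atad3a and Fdx1l were alike, with corrected values of 0.67, 0.61, 0.77 and 1.20. The 5 lower ones had 40.8% to 44.2% GC, among them Lbr, the lamin B receptor of the inner nuclear membrane. At 44.2% GC it read 319.9, 314 and 320.0 CPM in KO against 369 and 362 CPM in WT libraries (-0.20 ± 0.074, adjusted p = 0.0697; corrected -0.41, adjusted p = 0.00122).

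The genotype effect was then set beside that in the other states of the series. With anti-CD3 alone, KO minus WT was 2.31 for Ifng (adjusted p = 0.000313), 2.51 for Il2, 2.29 for Gzmb, 1.50 for Il2ra and 1.79 for Cdk6, and the difference from the effect with both antibodies was called for none of these 5. In unstimulated cells the same genes gave -0.27, -2.25, 0.16, -0.17 and 0.074, none of them called. Cblb differed by about the same amount in each state (-1.16 unstimulated, -1.21 with anti-CD3). Cd96 was lower in all 3 states (-0.96, -1.22 and -0.78). Myc and Cish differed more with anti-CD3 alone, at 1.37 and 2.60, than with both antibodies, at 0.51 and 1.68, but the difference between stimuli was not called for either (adjusted p = 0.0607 and 0.109). Pdcd1 and Lag3 were higher in KO cells with anti-CD3 (0.61 and 0.97) and not with both antibodies, and that difference was not called (adjusted p = 0.0765 and 0.0663). With the GC correction neither was called with anti-CD3 alone (0.40 and 0.49, adjusted p = 0.099 and 0.137), and the difference between stimuli was -0.17 for Pdcd1 and 0.024 for Lag3.

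Tested as a difference of differences, the genotype effect with both antibodies departed from that with anti-CD3 alone at 1 gene (0.00616% of those tested), with 4641 genes at an unadjusted p under 0.05. DESeq2 called 2255 and limma voom 7681, and without KO replicate 1 of the both-antibody group the count was 4753, so the number depends on the method and the libraries. With the GC correction 11 genes were called (0.0677%), and 1959 had an unadjusted p under 0.05. The gene was Nob1 (ENSMUSG00000003848; GRCm38 chromosome 8, 107412486 to 107425051), a nuclease that matures the small ribosomal subunit. It read 26.9, 23.3 and 22.9 CPM in KO and 26.2 and 28.2 CPM in WT libraries with both antibodies, and 33.6, 30.8 and 38.2 CPM in KO and 17.2, 14.1 and 18.02 CPM in WT libraries with anti-CD3 alone. The genotypes overlapped with both antibodies and were apart with anti-CD3, a difference of -1.22 ± 0.18 (adjusted p = 0.0482; corrected -0.93). Against unstimulated cells the genotype effect differed at 6089 genes (37.5%), or 2500 with the GC correction (15.4%). The GC slopes of those 2 comparisons run in opposite directions, as given above.

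**Figure D4:**
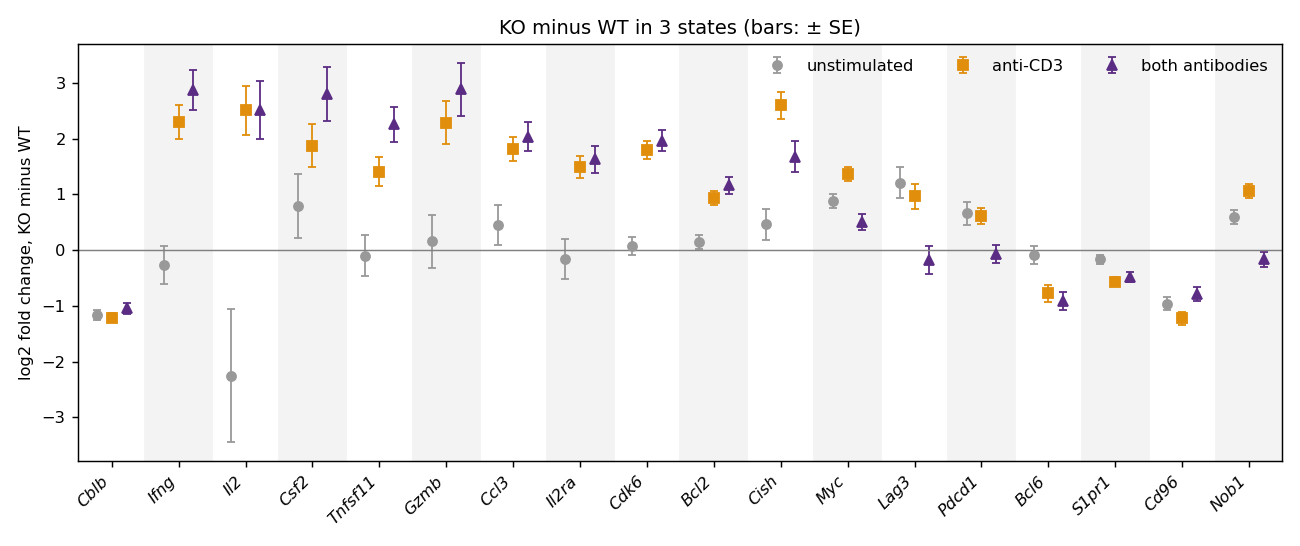
Log2 fold change of KO against WT (points, bars ± SE) for 18 genes in unstimulated cells, with anti-CD3 and with both antibodies. Ifng, Gzmb, Il2ra and Cdk6 lie near 0 in unstimulated cells and between 1.50 and 2.89 in both stimulated states, while Cblb and Cd96 lie below 0 in all 3.

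Genes near Cblb were examined because a line can carry flanking sequence of another background. Of 25 tested genes that start within 5 Mb of Cblb on chromosome 16, 4 were higher and 0 lower (Cip2a, Ift57, Alcam and Zbtb11), against 5 higher and 3 lower with the correction. The 3 lower with the correction were Bbx, Dubr and Cep97. With counts as deposited, Dubr and Cep97 were also called lower with anti-CD3 alone (-0.88 and -0.50) and in unstimulated cells (-0.78 and -0.29). Bbx was called lower in unstimulated cells (-0.32) and not with anti-CD3 alone (-0.24, adjusted p = 0.125). Over all genes tested, 9.84% were higher and 6.3% lower, or 10.3% and 7.49% with the correction. Ift57, of the ciliary transport machinery, differed most, by 1.17 ± 0.25 (adjusted p = 0.00812; corrected 0.97). Alcam lost its call with the correction (adjusted p = 0.0667). Genes of chromosome 16 further from Cblb were not counted, among them Cd200, which starts at 45382135.

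Markers of the labelled cell type were present and those of other cells mostly absent. All 12 CD8 T cell genes were expressed, with Cd8a at 548 to 665 CPM, and their summed level was 3280 to 3526 CPM in KO and 3709 to 3724 CPM in WT libraries. Cd4 had at most 1 read in a library. The summed B cell level was 167 to 238 CPM in KO and 265 to 279 CPM in WT libraries, nearly all of it Ighm at 221, 195 and 153 CPM and 263 and 251 CPM, while Pax5 was at most 0.832 CPM. Of 18 myeloid and dendritic genes 5 had 0 reads in all 5 libraries (Cd14, S100a8, S100a9, Flt3 and Clec9a), and the sum was 13.01 to 18.8 CPM in KO and 12.7 to 14.001 CPM in WT libraries. The NK cell sum was 7.88 to 11.5 CPM in KO and 7.37 to 8.03 CPM in WT libraries, with Ncr1 at 0 in all 5. In bulk RNA a change in the number of cells of a type cannot be told apart from a change in RNA per cell.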

How the data were processed

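RNA was sequenced as paired-end reads after ribosomal RNA removal with a stranded total RNA kit, per the labels' protocols. Each library has its own deposited table of raw read counts, all whole numbers (53679 genes). STAR 2.5.2, RSEM 1.3.0 and the build GRCm38 (mm10) are named per the submitters' processing notes. Annotation release, strand setting and rounding were not given in the sources used here, and genes that overlap or have near-identical copies may share reads. A joined table of the same counts was not used.

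Counts were fitted with edgeR 4.0.16 in R 4.3.3: filterByExpr by group, trimmed mean of M values, a robust quasi-likelihood model of all 17 libraries with 1 coefficient per group, and Benjamini-Hochberg adjustment at 0.05. GC content came from GENCODE M21 transcripts (99.9% of tested genes). The GC correction used loess offsets (span 0.3) over genes with a mean log2 CPM of 1 or more. Both fits were also run on simulated counts, without a GC trend or with a trend in KO both-antibody replicate 3 alone. A trend shared by all KO libraries was not simulated. Promoters came from RefSeq. Alternatives were scaling by relative log expression, DESeq2 1.42.0, limma 3.58.1 voom with sample weights, dropping the filter or requiring 1 CPM in 2 libraries, the GC correction, a replicate block, only the groups compared, and leaving out libraries. Figures used matplotlib 3.10.9.

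The comparison, the 38 gene lists and the tests were chosen with earlier results of these data known. Named genes were 28 fixed ones, the 12 highest and 12 lowest called protein-coding genes (mean log2 CPM of 2 or more, groups not overlapping, no predicted genes), in each list the 4 higher and 4 lower called members with the lowest adjusted p (fewer where fewer were called), the 6 highest and lowest called differences from anti-CD3, and 5 per direction called only with the GC correction. Those 5 per direction were taken within the limits of the 12 highest and 12 lowest. Members outside these rules (Il3, Socs2, Nkg7, Lef1, Bach2 and the genes near Cblb) were named after their values were seen. Some genes that the rules name are not reported here.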

Additional observations from a re-analysis of the deposited data

Results flagged for a closer look

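The genotype effect with both antibodies was tested against the genotype effect in the other states. It differed from that with anti-CD3 alone at 1 gene, Nob1, by -1.22 ± 0.18 on the log2 scale (adjusted p = 0.0482). It differed from that in unstimulated cells at 6089 genes, and 2500 with the GC correction.

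Of the 12 highest called genes with a mean log2 CPM of 2 or more and groups that did not overlap, 10 had a larger genotype effect with both antibodies than in unstimulated cells by edgeR's quasi-likelihood test. These genes were picked by the both-antibody values that enter this difference, so the choice itself favoured a larger effect there. Over all 16246 genes tested, the difference was called for 6089 (37.5%), of which 2972 were positive. The difference was 4.77 ± 1.34 for Il2 (adjusted p = 0.0128), whose level was near 0 counts in unstimulated cells, 3.14 ± 0.48 for Ifng (adjusted p = 0.00339) and 2.73 ± 0.65 for Gzmb (adjusted p = 0.00745). Chemokine genes gave 2.71 ± 0.78 for Ccl9 and 1.59 ± 0.45 for Ccl3, and the ligand gene Tnfsf11 gave 2.36 ± 0.49. Cd200 gave 2.70 ± 0.42, Cd24a 2.64 ± 0.53, Fignl1 1.88 ± 0.41 and Serpina3f 1.47 ± 0.38. With the GC correction the values were 3.88 for Il2, 2.56 for Ifng, 2.43 for Gzmb, 2.10 for Ccl9, 1.31 for Ccl3, 1.99 for Tnfsf11, 2.21 for Cd200, 2.06 for Cd24a, 1.28 for Fignl1 and 1.45 for Serpina3f. The calls of Il2, Ccl9 and Ccl3 were lost there (adjusted p = 0.0574, 0.113 and 0.0821), and the other 7 kept theirs. The GC slopes of the 2 states run in opposite directions, and what remains of them in these values was not tested.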

How the results depend on the processing

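The 126 genes named here as called kept their direction under all 29 alternatives, but calls depended on the libraries and the shared spread. These genes were named because they were called, many with groups that did not overlap, so a kept direction was favoured in advance. The alternatives that left out a library of another group also kept all 5 libraries compared. The 2621 genes called for KO against WT with both antibodies became 9370 with limma voom and 0 when only the groups compared were fitted. The count was 255 with only the groups compared and the GC correction, and 1526 without the 2 libraries of extreme GC trend. It was 1464 with the GC correction when KO both-antibody library 3 was left out. Leaving out each library in turn gave 11 (without WT replicate 3) to 5647 (without KO replicate 1), and voom moved the share of higher calls from 61.0% to 49.8%. The cause was not tested.

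The 1 gene whose genotype effect differed between both antibodies and anti-CD3 became 2255 with DESeq2, 7681 with limma voom, 326 with no filter, 11 with the GC correction and 1067 without the 2 libraries of extreme GC trend. It became 0 with relative log expression scaling, with the filter of 1 CPM, with only the groups compared (corrected or not) and with the GC correction when KO both-antibody library 3 was left out. Leaving out each library gave 0 to 4753 (without KO both-antibody replicate 1), and 1240 without KO unstimulated replicate 2. The 6089 genes against unstimulated cells became 2500 with the GC correction, 1535 with only the groups compared and corrected, 3773 without the 2 libraries of extreme GC trend and 1619 with the correction and without KO both-antibody library 3. Leaving out each library gave 3815 to 7382, with 3815 and 4010 without WT both-antibody replicates 2 and 3. The settings with the correction on the 5 libraries or without KO library 3 were added after seeing the data.

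The replicate block called 3063 genes for KO against WT, or 3274 with the GC correction. Against anti-CD3 the block called 0 genes, or 11 corrected, and against unstimulated cells 6077, or 2843 corrected. The both-antibody groups share only the numbers 2 and 3, and the differences between those replicates correlated at 0.12 across genes, so samples are taken to share only a number.

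Of the 13 named genes not called, 4 changed sign. Cd28 was -0.23 with the GC correction, -0.25 with block and correction, -0.22 with the 5 libraries corrected, -0.21 corrected without KO library 3, -0.050 without the 2 libraries of extreme GC trend and ran from -0.041 without KO replicate 3 to 0.13 without KO replicate 1. Lag3 was 0.0022 with voom, 0.51 corrected, 0.58 with block and correction, 0.51 with the 5 libraries corrected, 0.41 corrected without KO library 3, and ran from -0.43 without WT replicate 3 to 0.12 without WT replicate 2. Pdcd1 was 0.0051, 0.23, 0.31, 0.23 and 0.041 under the first 5 of those settings and ran from -0.11 without KO replicate 3 to 0.013 without KO replicate 1. Nob1 was 0.0074 with block and correction. A depth of 17816670 to 20989751 counts limits low genes such as Csf2, Il3 and Socs2.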

Other observations

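Clustered histone genes, grouped after their values were seen, gave 0 higher and 9 lower of 55 tested in KO cells given both antibodies (median log2 fold change -1.19), and 1 higher and 10 lower with the GC correction (median -0.88). Over all genes tested, 6.3% were called lower, or 7.49% with the correction. Among genes above 56% GC, 17.1% were called lower as deposited and 7.49% with the correction. The lower histone calls as deposited are thus not set apart from the share at high GC. With the correction, the 10 of 55 lie above that share. Genes above 56% GC with a mean log2 CPM of 1 or more had a median of -0.53, or -0.017 with the correction. Both histone medians were lower than these. The part of GC content in the histone values was not tested. Histone transcripts of this kind are made in S phase and mostly lack a poly(A) tail. The clustered histone genes had a median of 1.55 with anti-CD3 alone and 1.88 in unstimulated cells, the opposite direction. The DNA replication list had a median of 0.62 with both antibodies, 0.56 with anti-CD3 alone and 0.26 in unstimulated cells. The median GC content of the histone genes was 56.5%. The share of counts in 7SK RNA and the RNA of the signal recognition particle moved with them across the 5 libraries (2.65% to 9.45% in KO and 9.94% to 11.4% in WT). Its part in the histone values was not tested.

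The few genes whose genotype effect differed between stimuli only with the GC correction included Furin, a protease that activates secreted proteins (difference -1.07), Tomm40, of the mitochondrial import channel (-0.80), and Hexim1, the protein that holds P-TEFb inactive on 7SK RNA (-1.01). All 3 were named after their values were seen, with adjusted p = 0.0431 each in edgeR's quasi-likelihood test.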
